A study of Mus musculus with 12 samples.

Results

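The 10 genes described here are used as marks of hepatic stellate cells and of the myofibroblasts that form from them. They were taken by symbol from a table of 54532 genes measured in mouse liver. *Acta2*, *Tagln* and *Des* encode proteins of the contractile and intermediate filament cytoskeleton, *Pdgfra* and *Pdgfrb* encode the receptors for platelet-derived growth factors, *Reln* and *Hgf* encode secreted proteins, and *Lox*, *Loxl1* and *Loxl2* encode enzymes that cross-link collagen and elastin. All 10 had a row in the table. A test required the mean of the 12 mice to reach 1 FPKM, which 11083 genes did, and 9 of the 10 genes were among them. *Lox* did not reach it and is described separately.

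Quiescent stellate cells lie between hepatocytes and the sinusoidal endothelium and store vitamin A. In injured liver they acquire smooth muscle actin, divide in response to platelet-derived growth factor and deposit fibrillar collagen, which enzymes of the lysyl oxidase family make insoluble by joining its chains. Desmin, reelin and hepatocyte growth factor are made by stellate cells of normal liver as well, so the 10 genes cover both identity and activation.

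The livers came from male C57BL/6J mice that entered the experiment at 5 weeks of age and stayed on their diets for 26 weeks. ND-fed mice received a normal diet, and control mice a high-fat diet with no fatty acid added. HYA-treated mice received that high-fat diet with 1% HYA, a hydroxylated fatty acid that gut bacteria make from linoleic acid, and LA-treated mice received it with 1% LA, linoleic acid itself. Each group comprised 3 mice, so the high-fat diet is shared by 3 of the 4 groups. Each library held RNA of bulk liver from 1 mouse, and how these mice were chosen is not given in the sources used here. The p-values measure the spread between these mice only.

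The fragments counted on genes numbered 17169064 to 25220880 per mouse. The values are FPKM, fragments per kilobase of gene length, scaled by a library total that the authors chose. Levels can be compared between genes, while comparisons between mice depend on that total. That library total, set against the fragments on genes, differed by group: its ratio was 0.917 to 0.953 with ND, 1.03 to 1.10 in the control mice, 0.98 to 1.01 with HYA and 1.05 to 1.06 with LA. Differences are given on the log2(FPKM + 1) scale, on which those of genes near or below 1 FPKM are understated, and were tested with limma, two-sided, with Benjamini-Hochberg adjustment over all 11083 genes. A gene was called at an adjusted p under 0.05. In bulk liver, fewer cells of a type and less RNA per cell cannot be told apart.

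*Acta2*, the gene of smooth muscle α-actin, lies on chromosome 19 (GRCm38, 34241090 to 34255336, minus strand). The CArG box, to which serum response factor binds in muscle-type genes, occurred at 2 places in the 250 bases before the RefSeq start of *Acta2* (GRCm38.p6), starting 84 and 34 bases upstream, when at most 1 base of the core was allowed to be other than A or T. The box is palindromic, so 1 search covers both strands. The stretches around these places are shown because *Acta2* had one of the larger differences between diets among the 10 genes, with the box in capitals. They lie at chr19:34255438-34255467 and chr19:34255388-34255417 and are written 5′ to 3′ on the minus strand. GENCODE M21 extends *Acta2* to position 34255590, so both stretches lie before the RefSeq start but inside the first exon of a longer annotated transcript.
Acta2 box farther from the RefSeq start: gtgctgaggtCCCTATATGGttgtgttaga
Acta2 box nearer to the RefSeq start: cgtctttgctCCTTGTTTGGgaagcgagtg
The 150 bases before the RefSeq start of *Des* (chr1:75360142-75360291, plus strand) are shown beside them because *Des*, also a cytoskeletal gene, was called in none of the 6 comparisons. This window holds CAGCTG, the palindromic E-box of muscle genes, in capitals, 36 bases upstream.
Des upstream window: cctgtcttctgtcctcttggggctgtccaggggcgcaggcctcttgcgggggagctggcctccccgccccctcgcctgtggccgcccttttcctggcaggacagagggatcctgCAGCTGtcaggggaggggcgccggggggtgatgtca
Of 32851 RefSeq windows of 250 bases, 8.59% held a CArG box by this definition and 13.0% held CAGCTG. The latter also occurred in the window of *Acta2*, 182 bases upstream. RefSeq windows were found for 5 of the 10 genes, namely *Acta2*, *Des*, *Pdgfra*, *Reln* and *Hgf*, and only that of *Acta2* held the CArG box. The absence of a match says only that these letters are not in the window. *Tagln*, *Loxl1*, *Loxl2*, *Lox* and *Pdgfrb* had no window here.

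*Acta2* and *Tagln*, the contractile genes, exceeded in control mice their levels in ND-fed mice, and those in HYA-treated mice lay between these groups. *Acta2* was at 0.991, 1.13 and 1.34 FPKM in the ND-fed mice and at 3.34, 2.71 and 3.63 FPKM in the control mice. Every control mouse was above every ND-fed mouse, and the ratio of the means was 2.79. *Acta2* rose by 0.97 ± 0.19 (SE) on the log2(FPKM + 1) scale, with an adjusted p of 0.00296 (limma, n = 3 mice per group). The HYA-treated mice were at 2.06, 2.32 and 1.84 FPKM for *Acta2*, each below the lowest control mouse and above the highest ND-fed mouse. Their difference from control was -0.46 (95% interval -0.88 to -0.03), which did not pass the threshold (limma adjusted p = 0.234). The LA-treated mice were the most uneven group for *Acta2*, at 5.00, 3.66 and 2.12 FPKM, a coefficient of variation of 40.2% against 11.7% to 15.4% in the other groups. LA-treated mouse 3 was within the range of the HYA-treated mice, while mice 1 and 2 were above every control mouse. The difference between LA-treated and control mice was 0.08 (95% interval -0.35 to 0.50).

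*Tagln* encodes transgelin, an actin-binding protein of smooth muscle and myofibroblasts, and lies on chromosome 9 (45929619 to 45936058, minus strand). It had the highest level of the 10 genes in control mice, at 7.51, 7.61 and 7.43 FPKM, against 2.09, 2.66 and 3.61 FPKM in ND-fed mice. The control mice differed from each other by little, with a coefficient of variation of 1.17%, and all were above the ND-fed mice. *Tagln* rose by 1.19 ± 0.16 (limma adjusted p = 0.000297), a ratio of means of 2.70, which exceeded the difference of 98.3% of all tested genes. In the HYA-treated mice *Tagln* was at 4.62, 4.97 and 4.33 FPKM. These values overlapped neither group, being above every ND-fed and below every control mouse. The mean was 0.617 of that of control, a difference of -0.60 (95% interval -0.95 to -0.24) with an adjusted p of 0.0761 in limma, and only 1.17% of tested genes had a lower difference. *Tagln* came closest of the 9 genes to a call in this comparison. It passed when columns were rescaled to TPM, with an adjusted p of 0.0413 in limma, and with fragments on genes as the library total, with 0.0417. It also passed in limma's voom method on recovered fragments, with 0.0469, and over all 17 alternatives its adjusted p ranged from 0.0413 to 0.238. Relative to the median of all tested genes, the difference of *Tagln* was -0.61 as deposited and -0.67 in TPM. The LA-treated mice were at 8.66, 6.13 and 5.19 FPKM for *Tagln*, a range that spans the control mice.

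The level of *Tagln* carries an uncertainty of position. Of the 100-base stretches of its transcripts, 48.3% also occur in transcripts of other genes, mostly in the antisense gene *Gm48529* and a few in *Pcsk7*, both on the opposite strand. The strand setting of the counting is not given in the sources used here, so reads of *Tagln* and of these genes cannot be told apart. *Gm48529* was at 0.758 to 1.53 FPKM over the 12 mice and *Pcsk7* at 5.79 to 7.90 FPKM.

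*Des*, which encodes the intermediate filament protein desmin (chromosome 1, 75360329 to 75368579, plus strand), had the smallest difference of the 9 tested genes between control and ND-fed mice. Its levels were 1.30, 1.36 and 1.45 FPKM in the ND-fed mice, 1.61, 1.32 and 1.68 in the controls, 1.37, 1.43 and 1.61 with HYA and 1.74, 1.34 and 1.54 with LA. All 4 groups overlapped, and the group means spanned only 1.37 to 1.54 FPKM. The difference between control and ND-fed mice was 0.10 (95% interval -0.08 to 0.28, limma adjusted p = 0.394), and that between HYA-treated and control mice was -0.04 (-0.22 to 0.14). In TPM, where the median of all tested genes was 0.18 for control against ND in place of -0.04, the difference of *Des* was 0.32 and passed (limma adjusted p = 0.048), but relative to the median it was 0.14 on both scales.

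**Figure D1:**
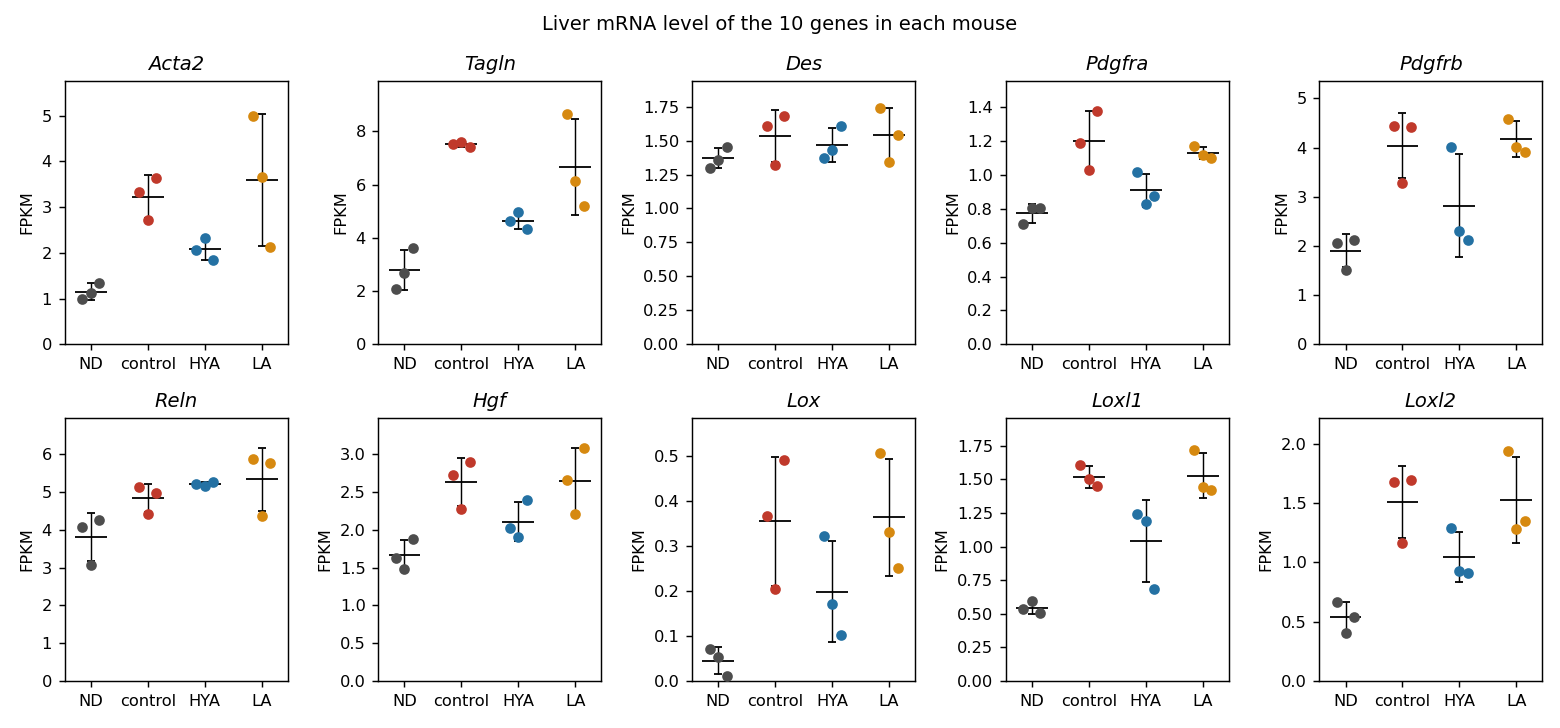
Level of each of the 10 genes in FPKM (vertical axes, from 0) in each mouse of the 4 diet groups, with black lines at the group mean and error bars of 1 SD (n = 3). *Tagln* ranged from 7.43 to 7.61 FPKM in control and from 4.33 to 4.97 FPKM in HYA-treated mice, whereas the 4 groups overlapped for *Des*.

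The receptors for platelet-derived growth factors both rose with the high-fat diet alone. *Pdgfrb* encodes the β receptor, the main receptor of stellate cells for this mitogen, and lies on chromosome 18 (61045150 to 61085061, plus strand). Its levels were 2.06, 1.51 and 2.12 FPKM in ND-fed mice and 4.43, 3.27 and 4.42 FPKM in control mice. The groups did not overlap, the ratio of the means was 2.13, and *Pdgfrb* rose by 0.80 ± 0.17 (limma adjusted p = 0.00465). HYA-treated mice were split for *Pdgfrb*, with mouse 1 at 4.02 FPKM, inside the control range, and mice 2 and 3 at 2.30 and 2.12 FPKM, near the ND-fed mice. The difference between HYA-treated and control mice was -0.43 (95% interval -0.81 to -0.05, limma adjusted p = 0.209). Without HYA-treated mouse 1 it was -0.64, with an adjusted p of 0.0528 in limma. In LA-treated mice *Pdgfrb* was at 4.59, 4.01 and 3.91 FPKM, which overlapped the control mice.

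*Pdgfra*, the gene of the α receptor (chromosome 5, 75152292 to 75198215, plus strand), was expressed at a lower level than *Pdgfrb* in every group. It was at 0.710, 0.804 and 0.805 FPKM in ND-fed mice and at 1.19, 1.03 and 1.38 FPKM in control mice. *Pdgfra* rose by 0.31 ± 0.08 (limma adjusted p = 0.00997), a ratio of means of 1.55, with no overlap. HYA-treated mice, at 1.02, 0.831 and 0.876 FPKM, lay just below the control and just above the ND-fed mice. Their difference from control of -0.20 (95% interval -0.37 to -0.03) did not pass (limma adjusted p = 0.186). LA-treated mice were close to each other, at 1.17, 1.12 and 1.10 FPKM, all inside the control range.

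Of the secreted factors, *Hgf* was called between control and ND-fed mice and *Reln* was not. *Reln* encodes reelin, a large extracellular protein that marks stellate cells in liver, and lies on chromosome 5 (21884454 to 22344702, minus strand). It was at 4.08, 3.07 and 4.27 FPKM in ND-fed and at 5.13, 4.43 and 4.97 FPKM in control mice, a ratio of 1.27. All control mice were above all ND-fed mice, but the difference of 0.29 (95% interval 0.04 to 0.54) did not pass (limma adjusted p = 0.0699). It passed in TPM (limma adjusted p = 0.00996), with fragments on genes as the library total (0.0138) and in voom (0.0477). *Reln* was the only tested gene of the 10 whose mean was higher with HYA than in the control mice. The HYA-treated mice were at 5.20, 5.15 and 5.26 FPKM, each above the highest control mouse, as was so for 12.7% of all tested genes. The difference from control was 0.09 (95% interval -0.16 to 0.34), with a limma adjusted p of 0.756. In TPM this difference was -0.02, so its direction depended on the scaling. LA-treated mice were at 5.88, 4.36 and 5.76 FPKM for *Reln*.

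*Hgf* encodes hepatocyte growth factor, which stellate cells release and hepatocytes receive, and lies on chromosome 5 (16553495 to 16620152, plus strand). Its levels were 1.63, 1.48 and 1.88 FPKM in ND-fed and 2.72, 2.28 and 2.90 FPKM in control mice. *Hgf* rose by 0.45 ± 0.11 (limma adjusted p = 0.00809), a ratio of means of 1.58, and the groups did not overlap. HYA-treated mice were at 2.02, 1.90 and 2.40 FPKM, and mouse 3 overlapped the lowest control mouse. The difference from control was -0.23 (95% interval -0.46 to 0.01, limma adjusted p = 0.284). *Hgf* in LA-treated mice was at 2.66, 2.21 and 3.08 FPKM, a range that encloses the control mice.

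The cross-linking enzymes were at no more than 1.94 FPKM in any mouse, and each of the 3 had a ratio of means of at least 2.79 between control and ND-fed mice. *Loxl1*, a lysyl oxidase-like enzyme known for its role in elastic fibres, lies on chromosome 9 (58287738 to 58313186, minus strand). It was at 0.535, 0.592 and 0.506 FPKM in ND-fed and at 1.61, 1.50 and 1.45 FPKM in control mice. *Loxl1* rose by 0.71 ± 0.11 (limma adjusted p = 0.0005), a ratio of means of 2.79. HYA-treated mice 1 and 2, at 1.24 and 1.19 FPKM, were nearer to the control mice, and mouse 3, at 0.687 FPKM, was nearer to the ND-fed mice. All 3 were below the lowest control mouse, and the difference was -0.32 (95% interval -0.55 to -0.09, limma adjusted p = 0.131). LA-treated mice were at 1.72, 1.44 and 1.42 FPKM, overlapping the control mice, and the means of both groups were 1.52 FPKM.

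*Loxl2*, whose product cross-links collagen IV and fibrillar collagens, lies on chromosome 14 (69609068 to 69695834, plus strand). It was at 0.663, 0.408 and 0.535 FPKM in ND-fed and at 1.68, 1.16 and 1.69 FPKM in control mice, with a ratio of means of 2.82. *Loxl2* rose by 0.70 ± 0.13 (limma adjusted p = 0.00175). In HYA-treated mice *Loxl2* was at 1.29, 0.929 and 0.913 FPKM, and mouse 1 was above the lowest control mouse. The difference of -0.29 (95% interval -0.58 to -0.01) did not pass (limma adjusted p = 0.249). LA-treated mice were at 1.94, 1.28 and 1.35 FPKM, again across the range of control. The level of *Loxl2* is uncertain to the extent that 42.8% of its 100-base stretches also occur in other transcripts, chiefly of *Gm21451*, which was listed at no more than 0.0507 FPKM in any mouse.

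*Lox*, the founding lysyl oxidase (chromosome 18, 52516069 to 52529867, minus strand), was below the level required for the test. It had 6, 4 and 1 fragments in the ND-fed mice, or 0.071, 0.0524 and 0.0116 FPKM. The control mice had 38, 21 and 49 fragments, or 0.367, 0.204 and 0.492 FPKM, all above the ND-fed mice. The means differed 7.88-fold, and the ratio of summed fragments after scaling was 7.94 (95% interval 4.27 to 16.4, counting error only). The p of an exact permutation test (two-sided) was 0.1, the smallest that 3 against 3 mice allow. HYA-treated mice had 30, 15 and 12 fragments (0.322, 0.172 and 0.101 FPKM), overlapping control, with a mean of 0.559 of control and an exact permutation p of 0.2. The ratio of their summed fragments to control was 0.539 (95% interval 0.384 to 0.75), counting error only. LA-treated mice had 52, 34 and 27 fragments (0.507, 0.331 and 0.252 FPKM) and overlapped the control mice. Where genes with a mean of at least 10 fragments were admitted, *Lox* was called higher in control against ND-fed mice by voom (2.99 on the log2 scale of counts, adjusted p = 0.0069) and not called between HYA-treated and control mice (adjusted p = 0.315).

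Taken by comparison, 7 of the 9 tested genes were called higher in control against ND-fed mice and none lower, where 16.2% of all tested genes were called higher. The 2 not called were *Des* and *Reln*. In 8 of the 9, all but *Des*, the groups did not overlap and control was higher, which held for 19.9% of all tested genes. The median difference was 0.70 over the 9 genes and -0.04 over all tested genes. *Pdgfra*, *Loxl1* and *Loxl2* had ND-fed means below 1 FPKM and met the level required for a test through the high-fat groups, so these counts describe the genes and carry no weight beyond that. Of all genes called in this comparison, 45.9% were higher as deposited and 85.1% in TPM, where each of the 9 genes was called higher.

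None of the 9 genes was called in HYA-treated against control mice, where 1.23% of all tested genes were called lower by limma. At an unadjusted p under 0.05, 6 of the 9 were lower (*Acta2*, *Tagln*, *Pdgfra*, *Pdgfrb*, *Loxl1* and *Loxl2*), against 7.89% of all tested genes. The groups did not overlap, with HYA-treated mice lower, for 4 of the 9 (*Acta2*, *Tagln*, *Pdgfra* and *Loxl1*), against 8.87% of all tested genes. *Pdgfra*, with means of 0.773 FPKM with ND and 0.910 with HYA, met the level required for a test through control and LA-treated mice, so these counts too are a description only. The median difference was -0.29 over the 9 genes and 0.02 over all tested genes. With TPM and with voom, the call of *Tagln* was 1 of 9 and 1 of 10 genes, where 3% and 1.84% of all tested genes were called lower. Of the genes called in this comparison, 56.1% were higher as deposited and 17.7% in TPM.

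**Figure D2:**
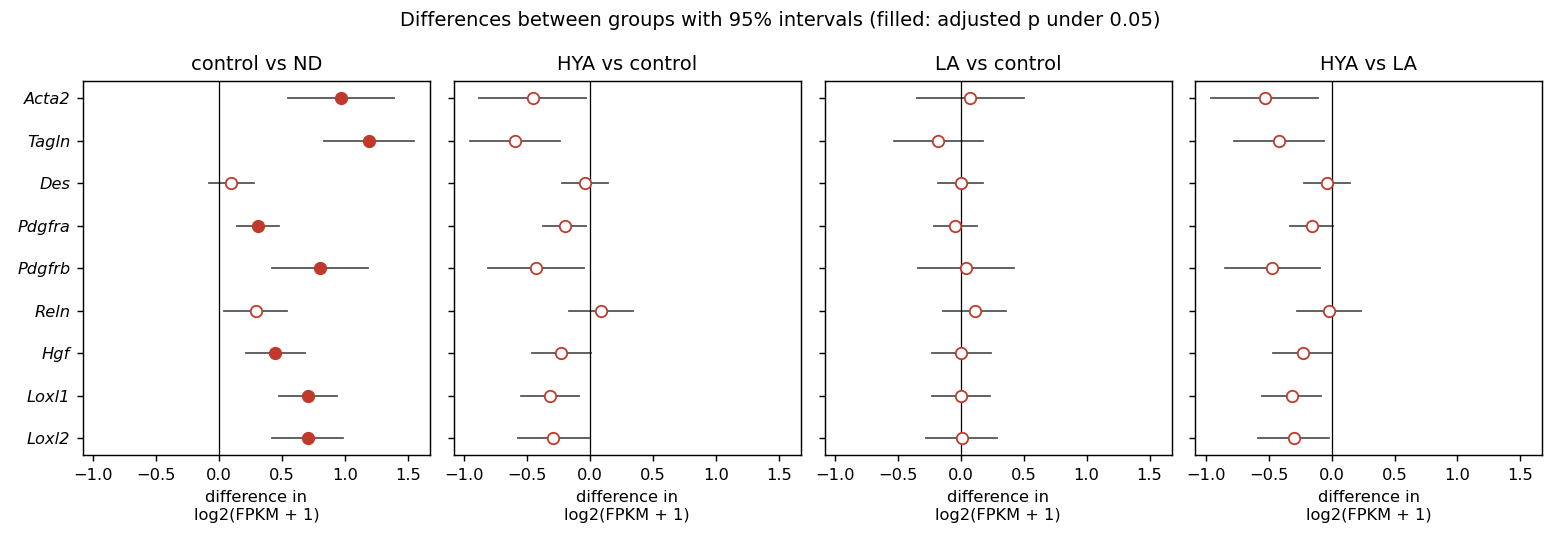
Difference in log2(FPKM + 1) (horizontal axes) with its 95% interval for the 9 tested genes in 4 comparisons, with filled circles for an adjusted p under 0.05 in limma. In control against ND 7 genes are filled, from 0.31 for *Pdgfra* to 1.19 for *Tagln*, and in the other comparisons none is, although the intervals of 6 genes lie below 0 in HYA against control.

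**Figure D3:**
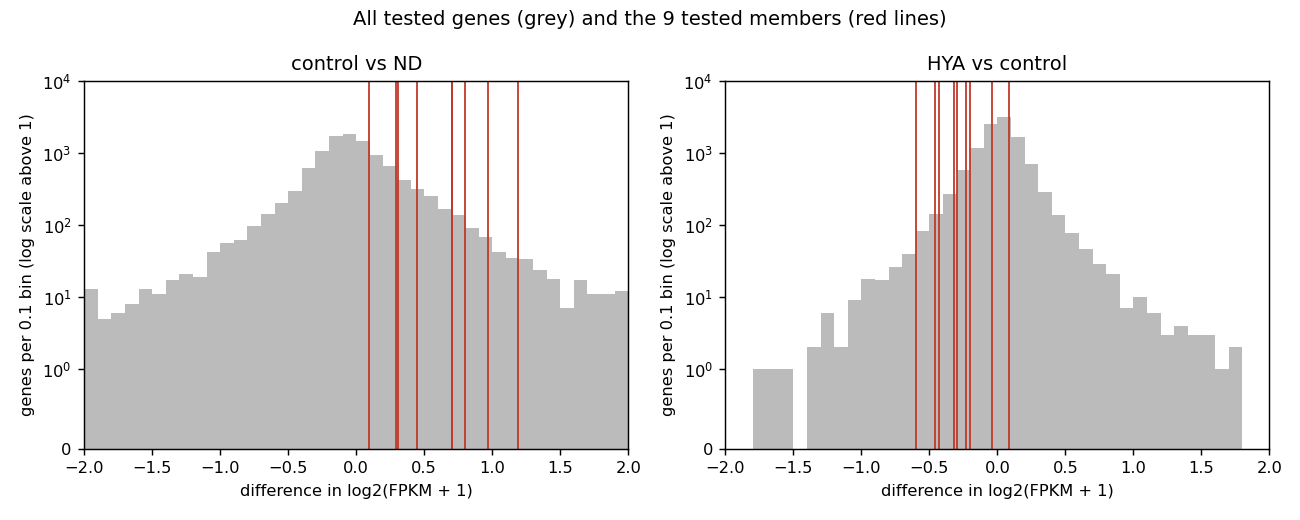
Number of tested genes (grey bars, logarithmic above 1) by difference in log2(FPKM + 1) in bins of 0.1 between -2 and 2, with a red line for each of the 9 genes. In control against ND every line (median 0.70) lies above the median of all tested genes (-0.04). That of *Des*, at 0.10, is within the bulk, with 69.7% of tested genes below it. In HYA against control (median -0.29) the lines of all but *Des* and *Reln* lie at -0.20 or lower.

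In LA-treated against control mice none of the 9 genes was called, as 0% of all tested genes were in either direction, and none of the 9 had an unadjusted p under 0.05 (294 of the 11083 genes did). By voom the count was also 0. Every one of the 9 genes overlapped between these groups, as most tested genes did. Of all tested genes, 3.94% did not overlap with LA-treated mice higher and 3.61% with LA-treated mice lower. The differences ran from -0.18 for *Tagln* (95% interval -0.54 to 0.18) to 0.11 for *Reln* (-0.14 to 0.36). Those of *Hgf*, *Loxl1* and *Loxl2* were 0.00, 0.00 and 0.01, with intervals of -0.23 to 0.24, -0.23 to 0.23 and -0.28 to 0.29.

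HYA carries a hydroxyl group and has 1 double bond fewer than LA, and both were given at 1% for 26 weeks, so the groups were compared directly. This is the test of whether the effects of the compounds differ, since both would be set against the same control mice. No gene of the 9 was called in this single pair, where 0.253% of all tested genes were called lower in HYA-treated mice by limma, and voom and the fit in TPM called none of the 9 either. At an unadjusted p under 0.05, 5 of the 9 were lower with HYA (*Acta2*, *Tagln*, *Pdgfrb*, *Loxl1* and *Loxl2*), against 7.01% of all tested genes. The groups did not overlap, with HYA-treated mice lower, for *Tagln*, *Pdgfra* and *Loxl1*, 3 of the 9 against 10.4%, and *Pdgfra* again met the required level through the LA-treated and control mice. The difference for *Acta2* was -0.53 (95% interval -0.96 to -0.11, limma adjusted p = 0.189) and rested on the uneven LA-treated mice, being -0.31 when LA-treated mouse 1 was left out and -0.79 when mouse 3 was. For *Loxl1* it was -0.32 (-0.55 to -0.09, limma adjusted p = 0.152). *Des* and *Reln* differed by -0.04 (-0.22 to 0.14) and -0.02 (-0.27 to 0.23).

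Compared with ND-fed mice, 3 of the 9 genes were called higher in HYA-treated mice, against 8.72% of all tested genes. They were *Tagln* (0.59 ± 0.16, limma adjusted p = 0.0304), *Reln* (0.38 ± 0.11, limma adjusted p = 0.0444) and *Loxl1* (0.39 ± 0.11, limma adjusted p = 0.0287). These calls were not firm. The number called was 0 without the filter on low values, and 5 in TPM. Leaving out ND-fed mouse 1 or 2 gave 0, as did leaving out mouse 1 or 2 of the HYA group, while 1 gene was called without mouse 3 of that group and 2 without ND-fed mouse 3. In LA-treated mice 8 of the 9, all but *Des*, were called higher than in ND-fed mice, against 14.4% of all tested genes, with *Acta2* at 1.04 ± 0.19 (limma adjusted p = 0.00222). The call of *Reln* there was lost without LA-treated mouse 1 or 3 (limma adjusted p = 0.0837 and 0.0765) or ND-fed mouse 2 (0.0772), and that of *Pdgfra* without ND-fed mouse 1 (0.066). As above, *Pdgfra*, *Loxl1* and *Loxl2* were tested because of their levels in the high-fat groups, so the counts against ND are descriptions. The comparisons with ND share the ND-fed mice and those with control share the control mice.

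The 9 tested genes had the same lowest group. ND-fed mice had the lowest mean for each, and HYA-treated mice the second lowest for all but *Reln*, whose order was ND, control, HYA and LA. Control and LA were neighbours for every gene but *Reln* and were not called apart for any of these 8. The neighbours ND and HYA were called apart for *Tagln* and *Loxl1* only, and no neighbours were for *Reln*.

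Ratios between genes of the same library, which no library scaling can change, were formed after the values were seen. *Reln*, a gene of stellate identity not called between control and ND-fed mice, served as a denominator. It was itself called higher in HYA-treated and in LA-treated than in ND-fed mice, and every HYA-treated mouse was above every control mouse for it. The choice of denominator therefore matters: in HYA-treated against control mice the log2 difference was -0.74 for *Acta2*/*Reln* and -0.571 for *Acta2*/*Des*. The *Acta2*/*Reln* ratio was 0.243, 0.369 and 0.315 in ND-fed, 0.651, 0.611 and 0.730 in control and 0.395, 0.451 and 0.350 in HYA-treated mice. The control mice were above both other groups, with no overlap. In LA-treated mice the *Acta2*/*Reln* ratio was 0.851, 0.840 and 0.367, with mouse 3 among the HYA-treated mice. The *Tagln*/*Reln* ratio was 1.46 to 1.72 in control and 0.824 to 0.965 in HYA-treated mice, and *Tagln*/*Des* was 4.41 to 5.75 and 2.70 to 3.48. *Pdgfrb*/*Reln* was 0.739 to 0.889 in control mice, and HYA-treated mouse 1, at 0.773, lay among them while mice 2 and 3, at 0.446 and 0.403, were below the ND-fed mice. For *Acta2*/*Reln* between HYA-treated and control mice the exact two-sided permutation p was 0.1, the smallest possible, or 0.178 after Benjamini-Hochberg adjustment over the 32 ratio tests made.

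**Figure D4:**
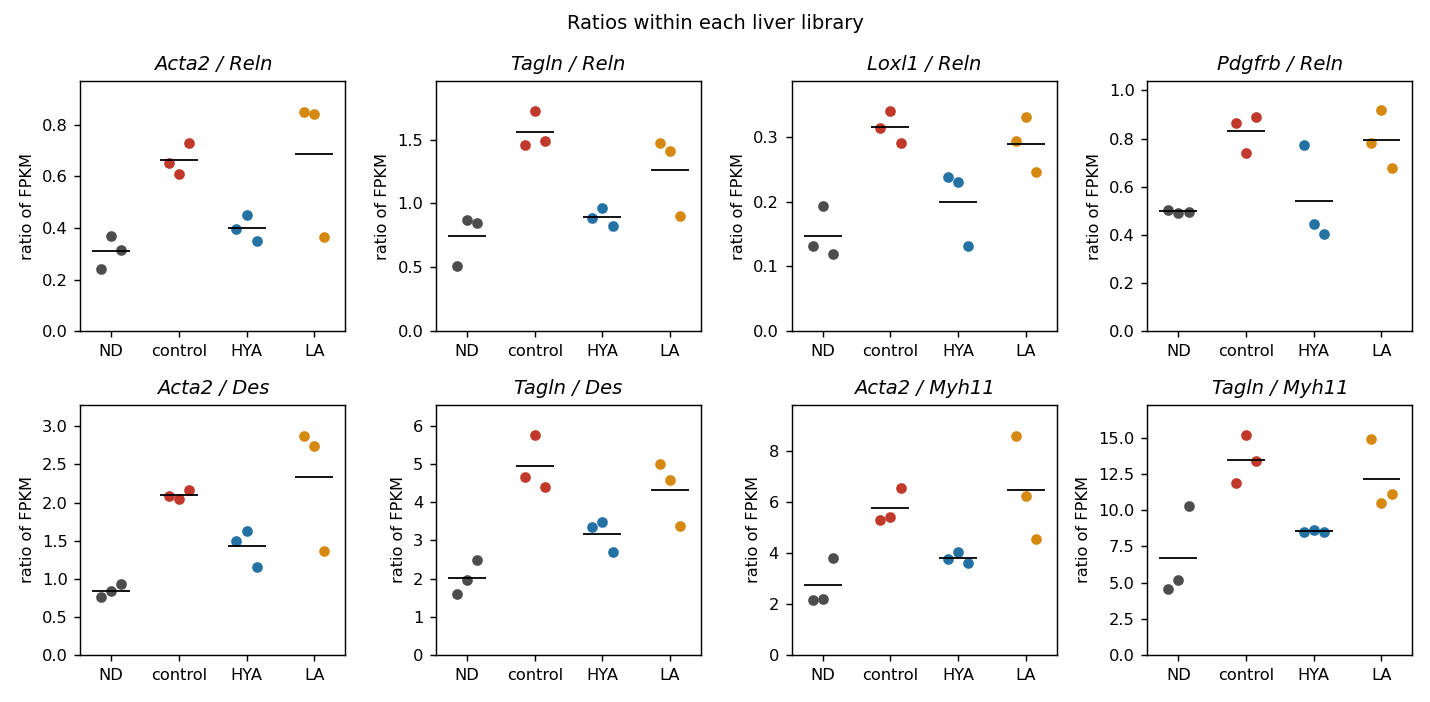
Ratio of the FPKM of pairs of genes within each mouse (vertical axes, from 0) by diet group, with black lines at the group mean. *Acta2*/*Reln* and *Tagln*/*Reln* were higher in each control mouse than in each ND-fed or HYA-treated mouse, and LA-treated mouse 3 was low for both.

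After removal of the group means, most pairs of the 10 genes were positively correlated. The correlations between the 45 pairs of genes over the 12 mice had a median of 0.387, and 41 of them were above 0. The highest was 0.858 for *Lox* with *Loxl2*, and the lowest -0.451 for *Hgf* with *Loxl1*. The tested genes of the table closest to the mean profile of the 9 genes, measured the same way, were *Mrps24* (r = 0.963), a mitochondrial ribosomal protein, *Fabp4* (0.961), a fatty acid-binding protein of adipocytes, macrophages and capillaries, *Bgn* (0.956) and *Fbln5* (0.953), which encode matrix proteins, and *Col4a1* (0.954), a basement membrane collagen. These are descriptions over mice that share library scaling and depth.

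Other genes of the same pathways were read as whole lists. Of 18 further stellate identity genes 16 were tested, and 8 rose and none fell in control against ND-fed mice, where 16.2% of all tested genes were called higher and 19.1% lower. *Rgs5*, a regulator of G protein signalling in pericytes, went from 8.83 ± 1.05 to 18.5 ± 3.37 FPKM (SD, n = 3), and *Cygb*, the stellate cell globin, from 4.02 ± 0.442 to 8.37 ± 1.31 FPKM. *Lrat*, which makes the retinyl esters that quiescent stellate cells store, was at 4.71 ± 0.776 FPKM in ND-fed and 6.99 ± 1.23 FPKM in control mice and did not pass (limma adjusted p = 0.0577). In HYA-treated against control mice *Vim*, the gene of vimentin, was the single one called, and it fell by 0.54 (limma adjusted p = 0.0436), where 1.23% of all tested genes were called lower. *Lrat* was at 8.15 ± 2.50 FPKM there. The median differences of the 16 genes were 0.40 and -0.15. Summed over the list, the level was 128 to 173 FPKM with ND, 198 to 235 in the control mice, 193 to 216 with HYA and 213 to 256 FPKM with LA, so stellate markers were present in every liver.

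Of 20 further contractile and cytoskeletal genes 14 were tested, and 9 rose and 2 fell in control against ND-fed mice, against 16.2% and 19.1% of all tested genes. *Tpm1*, a tropomyosin, rose by 1.09 (limma adjusted p = 2.22e-05), and *Myl9*, a myosin light chain, by 0.82 (limma adjusted p = 0.0133). *Tpm2*, another tropomyosin, fell by 0.57 (limma adjusted p = 0.00464). The other one that fell was *Mylk*, the myosin light chain kinase. In HYA-treated against control mice *Tpm1* fell by 0.56 (limma adjusted p = 0.0255) and *Tpm4* by 0.46 (limma adjusted p = 0.0357), 2 of the 14 against 1.23%. *Tpm1* was also the only gene of the list called lower with HYA than with LA (-0.53, limma adjusted p = 0.0477), against 0.253% of all tested genes. *Myocd*, the muscle coactivator of serum response factor, was listed at 0 in all mice.

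Of the ligands for the receptors above, *Pdgfa* rose by 0.81 (limma adjusted p = 0.000787) and *Pdgfd* by 0.38 (limma adjusted p = 0.0187) in control mice, and *Pdgfc* did not pass. *Pdgfb* was not tested, with means of 0.482 FPKM with ND, 0.908 in the control mice, 0.760 with HYA and 1.20 with LA. Of 8 genes around hepatocyte growth factor 5 were tested and all 5 fell in control mice, against 19.1% of all tested genes. Of the 9 tested hepatocyte markers, 8 were also called lower there (median difference -0.54), and their part in this count was not tested. *Met*, its receptor, fell by 0.37 (limma adjusted p = 0.00814), and *Hgfac*, the protease that activates it, by 0.35 (limma adjusted p = 0.00201). The others were *Hpn*, *Spint2* and *Mst1*. *Vldlr*, a reelin receptor, rose by 0.70 (limma adjusted p = 0.000115), while *Lrp8*, the other one, had a mean of at most 0.0328 FPKM in any group. With an ND-fed mean of 0.518 FPKM, *Vldlr* met the level required for a test through the high-fat groups. *Pdgfd*, at 0.718 FPKM with ND and 0.938 with HYA, met it through control and LA-treated mice. The calls of both are descriptions only. None of the ligand, *Hgf* or reelin axis genes was called in HYA-treated against control mice, and at the same threshold none of the 7 lists had a gene called in LA-treated against control mice.

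Of 17 further genes for collagen cross-linking and processing 10 were tested, and 5 rose and none fell in control mice, against 16.2% and 19.1% of all tested genes. *Serpinh1*, the collagen chaperone, rose by 1.26 (limma adjusted p = 0.000685) and *Pcolce*, which enhances procollagen processing, by 0.85 (limma adjusted p = 0.000409). *Plod1* and *Plod3*, the lysyl hydroxylases tested, differed by 0.10 and 0.03 (limma adjusted p = 0.342 and 0.726). *Plod2*, *Loxl3* and *Loxl4* were below the level required for the test. In HYA-treated against control mice *Tgm2*, a transglutaminase that also joins matrix proteins, fell by 0.58 (limma adjusted p = 0.044). Among 6 tested substrates, *Col1a1*, *Col1a2*, *Col3a1* and *Col5a2* fell in HYA-treated mice, against 1.23% of all tested genes. In control against ND 5 rose and 1 fell (*Col5a3*), against 16.2% and 19.1%. *Col1a1*, *Col1a2*, *Col5a2* and the processing gene *Adamts2*, which also rose, had ND-fed means of 0.978, 0.86, 0.342 and 0.497 FPKM. *Col5a2* was at 0.924 FPKM with HYA. These genes met the level required for a test through the groups where they were higher, so the counts here are descriptions. *Col1a1* was at 0.978 ± 0.317 FPKM with ND, 10.7 ± 2.79 FPKM in the control mice, 4.34 ± 1.09 FPKM with HYA and 9.09 ± 1.86 FPKM with LA.

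Other cells of the liver also carry some of these genes, so lists of their markers were summed per mouse. Vascular smooth muscle, which expresses *Acta2* and *Tagln*, had a summed level of 10.5 to 12.0 FPKM with ND, 10.2 to 10.8 in the control mice, 11.6 to 12.0 with HYA and 10.2 to 11.7 FPKM with LA. Of its 10 genes 3 were tested, and 5 are also in the contractile list. In control against ND-fed mice 1 was called higher and 1 lower, against 16.2% and 19.1% of all tested genes. Most of the sum was *Hspb6*, a small heat shock protein of muscle, which was at 7.56 ± 0.425 FPKM with ND and 5.46 ± 0.570 FPKM in the control mice and fell (limma adjusted p = 0.00279). *Smtn*, the gene of smoothelin, was at 2.10 ± 0.366 and 2.82 ± 0.241 FPKM and rose (limma adjusted p = 0.037), so members of the sum went opposite ways. Its defining gene *Myh11* had means of 0.441, 0.561, 0.542 and 0.544 FPKM in ND-fed, control, HYA-treated and LA-treated mice and *Cnn1* means of at most 0.108 FPKM. The *Acta2*/*Myh11* ratio was 2.17 to 3.82 with ND, 5.30 to 6.57 in the control mice, 3.60 to 4.05 with HYA and 4.54 to 8.62 with LA.

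The portal fibroblast sum followed the order of most of the 10 genes, at 4.46 to 5.17 FPKM with ND, 10.9 to 13.5 in the control mice, 7.35 to 8.91 with HYA and 10.9 to 13.3 FPKM with LA. Its means were 4.70, 12.2, 8.29 and 12.5 FPKM, and *Dpt* alone had means of 2.09, 6.70, 4.26 and 7.27 FPKM. Not every marker followed this order: *Thy1* was at 0.555, 0.502, 0.451 and 0.462 FPKM, and *Clec3b* was highest with HYA, at 0.189 FPKM. Of these 10 markers 2 were tested (*Entpd2* and *Dpt*), and both were called higher in control against ND-fed mice, against 16.2% of all tested genes. Neither was called in HYA-treated against control mice, where 1.23% of all tested genes were called lower. The mesothelial sum was 1.24 to 1.42, 1.67 to 2.25, 1.39 to 1.96 and 2.21 to 2.64 FPKM in the same order of groups, with none of 8 tested. Its largest part was *Krt19*, which is also in the cholangiocyte list, with means of 0.746, 0.897, 0.654 and 1.05 FPKM. Macrophage markers were at 192 to 284, 299 to 325, 221 to 299 and 304 to 322 FPKM. Of 9 tested, 5 were called higher in control against ND, against 16.2% of all tested genes. *Clec4f*, *Vsig4*, *Adgre1* and *Csf1r* were not called there. In HYA against control 2 were called lower, against 1.23% of all tested genes. *Gpnmb* is in both counts, with means of 0.0386 FPKM with ND and 0.859 with HYA. It met the level required for a test through control and LA-treated mice, so these counts are descriptions. Hepatocyte markers ran the other way, at 43200 to 45300, 28700 to 32400, 36900 to 37900 and 31500 to 32300 FPKM. The part of these cell types in the differences of the 10 genes was not tested.

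Sinusoidal endothelium markers were at 73.0 to 88.7 FPKM in ND-fed mice and at 91.8 to 101 FPKM in all others. Cholangiocyte markers were at 9.82 to 11.7, 9.99 to 13.7, 7.79 to 9.51 and 9.95 to 14.0 FPKM in ND-fed, control, HYA-treated and LA-treated mice. Every HYA-treated mouse was thus below every other mouse. Of the 3 markers tested *Epcam* was called lower in HYA-treated against control mice (-0.84, limma adjusted p = 0.0357), against 1.23% of all tested genes. Its means were 0.898 FPKM with ND and 0.863 with HYA, against 2.38 in the control mice and 1.71 with LA. *Epcam* thus met the level required for a test through control and LA-treated mice, and its call is a description only. Lymphocyte markers were at 2.43 to 4.70 FPKM over all mice. Skeletal muscle markers did not exceed 1.06 FPKM in any mouse, and *Mb* was at 0 in all. The adipocyte list was at 1770 to 1990, 705 to 776, 865 to 970 and 794 to 856 FPKM, most of it *Car3*, which hepatocytes also express. Of its 4 tested genes 1 rose and 2 fell in control against ND-fed mice, against 16.2% and 19.1% of all tested genes. *Cidec*, the gene that rose, went from 8.55 to 85.8 FPKM (limma adjusted p = 6.32e-07) and was at 59.3 FPKM with HYA, so it ran opposite to the sum. In the sum the HYA-treated mice did not overlap the control mice. *Car3* was the only gene of the list called higher in HYA-treated against control mice (0.41, limma adjusted p = 0.0316), against 1.57% of all tested genes. The part of these lists in the differences of the 10 genes was not tested.

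**Figure D5:**
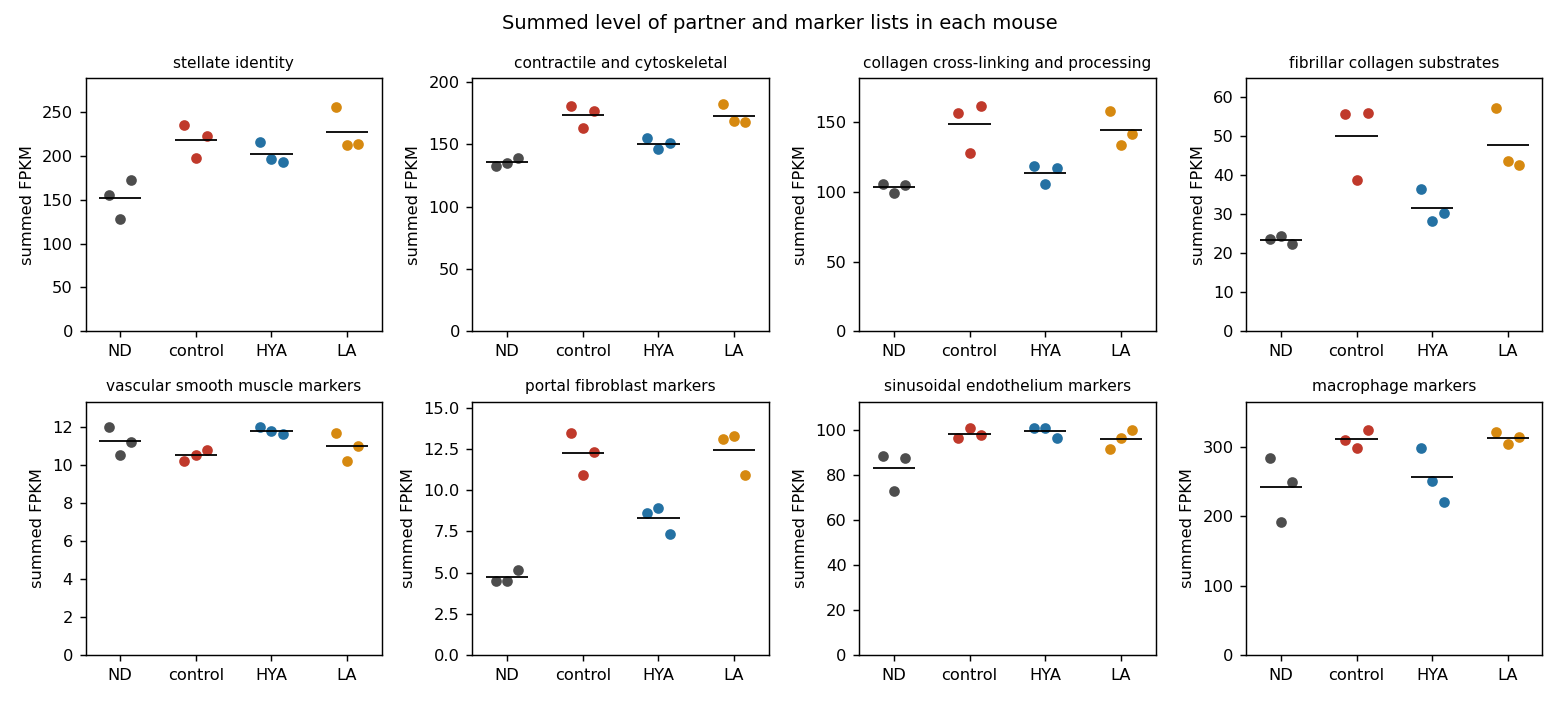
Summed FPKM (vertical axes, from 0) of 4 lists of related genes (top) and 4 lists of cell type markers (bottom) in each mouse, with black lines at the group mean. Portal fibroblast markers were at 4.46 to 5.17 in ND-fed, 10.9 to 13.5 in control and 7.35 to 8.91 in HYA-treated mice, and *Dpt* was the largest part of this sum. Vascular smooth muscle markers, mostly *Hspb6*, were at 10.2 to 12.0 over all mice.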

How the data were processed

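RNA of 12 mouse livers, 3 per diet group, was sequenced. The table that the authors deposited gives the FPKM of each gene in each mouse, beside Ensembl identifiers, coordinates and gene lengths. The study's methods name TPM, but the deposited columns sum to different totals. The submitters' processing notes list fastp, HISAT2 2.0.5, featureCounts 1.5.0-p3 and GRCm38. The strand setting and the treatment of shared reads are not given in the sources used here. Multiplied by gene length, 100% of the values in each column were whole multiples of 1 step within a tolerance of 0.05, taken as 1 fragment.

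Genes whose mean reached 1 FPKM were tested with limma 3.58.1 in R 4.3.3 (means of 4 groups, empirical Bayes with trend) on log2(FPKM + 1), a pseudocount of 1, two-sided, with Benjamini-Hochberg adjustment over 11083 genes. A count model was foreseen for counts, but the table holds FPKM. Intervals are 95%. Genes below that level were compared by exact permutation tests, and count ratios have exact binomial intervals that cover counting error only. The method was tested on simulated data. Alternatives were other pseudocounts, filters, scalings (TPM, median-ratio size factors, fragments on genes), a fit of 2 groups, a replicate block, voom, a fold threshold and leaving out each mouse. Fragments on genes as library total, and the filter of 10 fragments joined with a pseudocount of 0.1, were chosen after seeing the data.

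The 10 genes, the 7 lists of related genes and the lists of cell type markers (vascular smooth muscle, portal fibroblast, mesothelial, hepatocyte, sinusoidal endothelium, macrophage, cholangiocyte, skeletal muscle, adipocyte, lymphocyte) were chosen with earlier results of these data known. The genes named are the 10, a fixed part of the related lists and the 5 genes nearest to their mean profile after removal of group means. Genes of those lists outside that part (*Tpm4*, *Mylk*, *Myocd*, *Hpn*, *Spint2*, *Mst1*, *Adamts2*, *Col5a2*, *Col5a3*, *Entpd2*, *Dpt*, *Thy1*, *Clec3b*, *Krt19*, *Clec4f*, *Vsig4*, *Adgre1*, *Csf1r*, *Gpnmb*, *Hspb6*, *Smtn*, *Epcam*, *Car3*, *Cidec*, *Mb*), and genes that share sequence with the 10, were named after their values were seen. Coordinates are those of the table on GRCm38; 98.26% of 54409 identifiers shared with GENCODE M21 had the same coordinates. Promoter sequences are from RefSeq (GRCm38.p6). One marker is not reported here.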

Additional observations from a re-analysis of the deposited data

How the results depend on the processing

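The numbers of the 9 tested genes called in HYA-treated against ND-fed mice (3) moved to 0 without a filter on low values, 5 in TPM and 0 where a log2 difference above 1 was also required, and leaving out 1 mouse gave 0 to 2. That fold requirement left 1 gene in control against ND (7 otherwise, 6 to 7 without 1 mouse) and 2 in LA against ND (8 otherwise, 6 to 8). It was set on the log2(FPKM + 1) scale, which understates differences of genes near or below 1 FPKM. In control against ND it left out *Acta2*, *Pdgfrb*, *Loxl1* and *Loxl2*, whose ratios of means were 2.79, 2.13, 2.79 and 2.82. In HYA against control the number was 0, and 1 in TPM, 1 with fragments on genes as the library total and 1 with voom, *Tagln* each time. With the replicate block, the calls numbered 8 for control, 4 for HYA and 8 for LA against ND, in place of 7, 3 and 8, and 0 in the 3 other comparisons, as without it. Same-numbered mice did not deviate together (18 pairs of libraries, r from -0.396 to 0.294, 3 above 0.1), so the numbers were not taken as pairs. In TPM 4417 genes were called higher and 775 lower in control against ND (1795 and 2115 as deposited), and 3218 and 852 with fragments on genes as the library total; the medians of all tested genes were 0.18, -0.04 and 0.11. Directions turned mainly in LA against control, where differences were near 0. There *Loxl1* was -0.000683 with a pseudocount of 0.1, also with the filter of 10 fragments, -0.00554 in TPM, -0.00656 with fragments on genes and -0.0032 with voom, *Hgf* was -0.00259 in TPM and -0.0049 with fragments on genes, *Loxl2* was -0.000822 with fragments on genes and *Des* was 0.000278 with voom. *Reln* in HYA against control was -0.019 in TPM. Without 1 mouse, LA against control ran from -0.143 to 0.33 for *Acta2*, -0.0635 to 0.0578 for *Des*, -0.0731 to 0.1 for *Pdgfrb*, -0.0811 to 0.092 for *Hgf*, -0.0549 to 0.0313 for *Loxl1* and -0.107 to 0.0744 for *Loxl2*. *Des* ran from -0.102 to 0.00261 in HYA against control and from -0.0968 to 0.0173 in HYA against LA, and *Reln* from -0.137 to 0.0433 in HYA against LA. The causes were not tested. *Pdgfra* fell below the required mean in some of these fits and then has no value. Depth limits *Lox* most, with 1 to 6 fragments in ND-fed mice.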
